A study of Mus musculus with 6 samples.

Results

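The 10 genes described here encode secreted factors by which 4T1 tumors drive granulocytes: the growth factors Csf2 and Csf3, the neutrophil attractants Cxcl1, Cxcl2, Cxcl3, Cxcl5 and Cxcl15, and the inflammatory cytokines Il1a, Il1b and Il6. They were taken by name, with earlier results of these data known, and all 10 were found among the 31017 rows of the count table. 4T1 is a mammary carcinoma line of BALB/c mice, known for the marked expansion of granulocytes that its tumors cause in the host. The 3 control libraries came from 4T1 cells nucleofected with Cas9 and control guide RNAs, and the 3 FGFR2 KO libraries from 4T1 cells nucleofected with Cas9 and guides specific for FGFR2, a receptor for fibroblast growth factors. Both groups were then grown in collagen I gels, with a collagen concentration of either 1.2 or 2.4 mg/ml, in medium with 10% serum, and released with collagenase at 300 U/ml for 10 min and a further 5 min. The labels give neither the collagen concentration of a library, nor the length of the culture, nor whether the KO cells were a pool or a single clone.

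Granulocytes are made in the marrow under the control of G-CSF (the product of Csf3) and GM-CSF (the product of Csf2), and leave the blood along gradients of CXC chemokines that carry a Glu-Leu-Arg motif and act on the receptor CXCR2. IL-1 and TNF induce these genes in epithelial and stromal cells through NF-kB, often together with C/EBP factors and AP-1. Their messages are short-lived because AU-rich elements in the 3′ untranslated region attract decay factors such as tristetraprolin (Zfp36), and stem-loops there are cut by the nuclease regnase-1 (Zc3h12a).

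The libraries held 15531790 to 20447719 counts, so that 3 counts correspond to 0.147 to 0.193 CPM, the unit used here for counts scaled to a common library size. Fgfr2 itself had 95.9 to 106 CPM in the control and 81.2 to 101 CPM in KO libraries, a log2 change of -0.11 (edgeR adjusted p = 0.113; -0.17 and 0.0081 without KO replicate 1). A total over the gene does not check the label, since a small deletion need not lower the transcript. The epithelial markers Epcam, Cdh1, Krt7, Krt8, Krt18, Krt19 and Cldn7 were all present. They summed to 4998 to 5114 CPM in control and 4138 to 4205 CPM in KO libraries. Of these 7, 5 fell and 1 rose, against 27.5% and 27.1% of all tested genes. Krt18 fell from 1401.5 to 918.4 CPM, while Cdh1 rose from 327 to 390 CPM (edgeR adjusted p = 1.48e-07). Cldn7 did not pass the test (edgeR adjusted p = 0.581). The part of these changes in the results was not tested. Of 8 granulocyte markers, 6 (among them Elane, Mpo, Ly6g and S100a9) had 0 counts in every library, and the list summed to 0.0545 to 0.985 CPM in control and 0.0988 to 0.481 CPM in KO libraries. Of 9 markers of macrophages and other leukocytes, Adgre1, Fcgr1 and Cd3e had 0 counts and Ptprc, the pan-leukocyte marker, averaged 0.0215 and 0.0357 CPM. That list summed to 23.1 to 25.5 CPM in control and 15.99 to 16.99 CPM in KO libraries, and Cd68, a lysosomal protein, fell in it from 13.7 to 5.97 CPM (edgeR adjusted p = 7.88e-10). Cd14, which is not limited to leukocytes, stood at 9.37 and 9.10 CPM and Csf1r, the macrophage receptor for CSF1, at 0.921 and 1.22 CPM, and neither passed the test (edgeR adjusted p = 0.795 and 0.415). The part of leukocytes in the results was not tested. Fibroblast markers summed to 36.3 to 38.2 CPM in control and 39.7 to 45.4 CPM in KO libraries, almost all of it Pdgfra, and endothelial markers summed to at most 0.856 CPM.

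In the KO libraries, compared by edgeR over all tested genes, 8 of the 10 genes fell and Il6 and Cxcl15 rose. For comparison, 54.6% of the 12158 tested genes passed the test, 27.5% as lower and 27.1% as higher in the KO libraries. The falls were also larger than most: 6 of the 10 genes fell at least 2-fold, against 3.87% of all tested genes. A rise of at least 2-fold, as in Il6 and Cxcl15, was called for 2.88%. Since the 10 genes were chosen with earlier results of these data known, these shares only describe them. For each of the 10 genes the groups did not overlap, as in 30% of tested genes with all KO libraries below and 29.5% with all KO libraries above the control. The 8 genes that fell reached the filter level of 0.524 CPM in all 6 libraries, whereas Il6 and Cxcl15 reached it only in the KO libraries, so that these 2 could pass the filter only by being higher there. The 10 genes together took 0.121% to 0.124% of all counts in control and 0.0483% to 0.0506% in KO libraries. In bulk RNA, fewer cells that express a gene and less RNA per cell cannot be told apart.

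**Figure D1:**
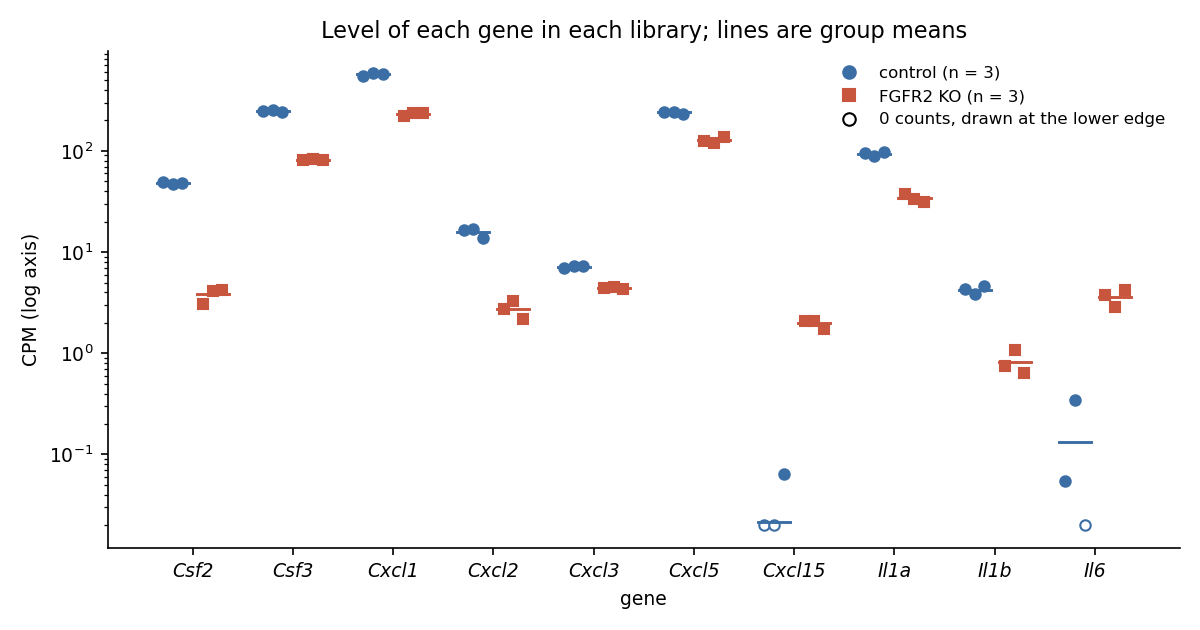
Level of each of the 10 genes in each library, in CPM on a log axis, with 3 control libraries (circles), 3 FGFR2 KO libraries (squares) and lines at the group means; open circles are libraries with 0 counts. The KO libraries lie below the control libraries for 8 genes and above them for Cxcl15 and Il6.

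Csf2 fell most of the 10. It lies on chromosome 11 (54247271 to 54249667, minus strand, mm10) and encodes GM-CSF, which acts on granulocyte and macrophage precursors. Control replicates 1 to 3 had 49.4, 47.5 and 47.9 CPM and KO replicates 1 to 3 had 3.10, 4.09 and 4.25 CPM. The lowest control library was thus far above the highest KO library. The mean went from 48.3 ± 1.02 to 3.81 ± 0.620 CPM (SD, n = 3), 12.7-fold lower, with a log2 fold change of -3.66 (95% interval -3.86 to -3.45, edgeR adjusted p = 1.18e-27). Only 9 of the 12158 tested genes had a lower log2 fold change, as Csf2 stood at rank 10. Gm12223, an antisense gene that overlaps Csf2 on the other strand, had 39 counts over the control and 6 over the KO libraries, against 2614 and 224 for Csf2.

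Csf3 lies on the same chromosome (98701263 to 98703629, plus strand) and encodes G-CSF, the main growth factor of neutrophils. Its values were 248, 252 and 240 CPM in control replicates 1 to 3 and 80.6, 82.6 and 80.7 CPM in KO replicates 1 to 3. Replicates lay close together, with a coefficient of variation of 2.46% in control and 1.36% in KO libraries. The mean fell from 247 ± 6.08 to 81.3 ± 1.11 CPM (SD, n = 3), with a log2 fold change of -1.60 (95% interval -1.69 to -1.52, edgeR adjusted p = 2.66e-28). Csf2 therefore lost more than Csf3: its counts were 19.6% of those of Csf3 in control and 4.69% in KO libraries, a difference of -2.07 in the log2 ratio. A ratio of counts within a library does not depend on the scaling of libraries.

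Of the 5 neutrophil attractants, Cxcl1 was the most abundant in both groups. Cxcl1 (also known as KC) had 548, 583 and 573 CPM in control replicates 1 to 3 and 221, 235 and 238 CPM in KO replicates 1 to 3. The KO libraries kept 40.7% of the control mean, or -1.30 on the log2 scale (SE 0.037, edgeR adjusted p = 5.34e-27). Cxcl5, which encodes the chemokine LIX, had 243, 245 and 231 CPM in control and 125, 119 and 136 CPM in KO libraries. Its fall was smaller, to 52.9% of the control, or -0.92 on the log2 scale (SE 0.044, edgeR adjusted p = 4.51e-20).

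Cxcl2 (MIP-2) was much lower in level and fell more steeply. Control replicates 1 to 3 had 16.4, 16.8 and 13.9 CPM and KO replicates 1 to 3 had 2.73, 3.27 and 2.17 CPM, so that all KO libraries were well below all control libraries. The log2 change was -2.53 (SE 0.15, edgeR adjusted p = 2.52e-17), and only 0.37% of tested genes had a lower one. Cxcl3 had 6.92, 7.29 and 7.36 CPM in control and 4.44, 4.49 and 4.30 CPM in KO libraries, the smallest fall of the 8. Its log2 change was -0.70 (SE 0.15, edgeR adjusted p = 1.76e-04), which did not exceed a minimum fold change of 1.5 (edgeR adjusted p = 0.709). Relative to Cxcl1 in the same library, Cxcl2 fell by 1.24 on the log2 scale whereas Cxcl3 and Cxcl5 gained 0.59 and 0.38.

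Cxcl15 (lungkine), a chemokine known from lung epithelium, moved the other way. It had counts of 0, 0 and 1 in the 3 control libraries, against 39, 41 and 35 in the 3 KO libraries, which is 1.73 to 2.09 CPM. The KO to control ratio of the summed counts was 106, with a 95% interval of 18.7 to 4240 for counting error only (edgeR adjusted p = 4.77e-10). The rise was thus large as a ratio, but Cxcl15 remained a minor transcript, well below the levels of Cxcl1 and Cxcl5 in the KO libraries.

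**Figure D2:**
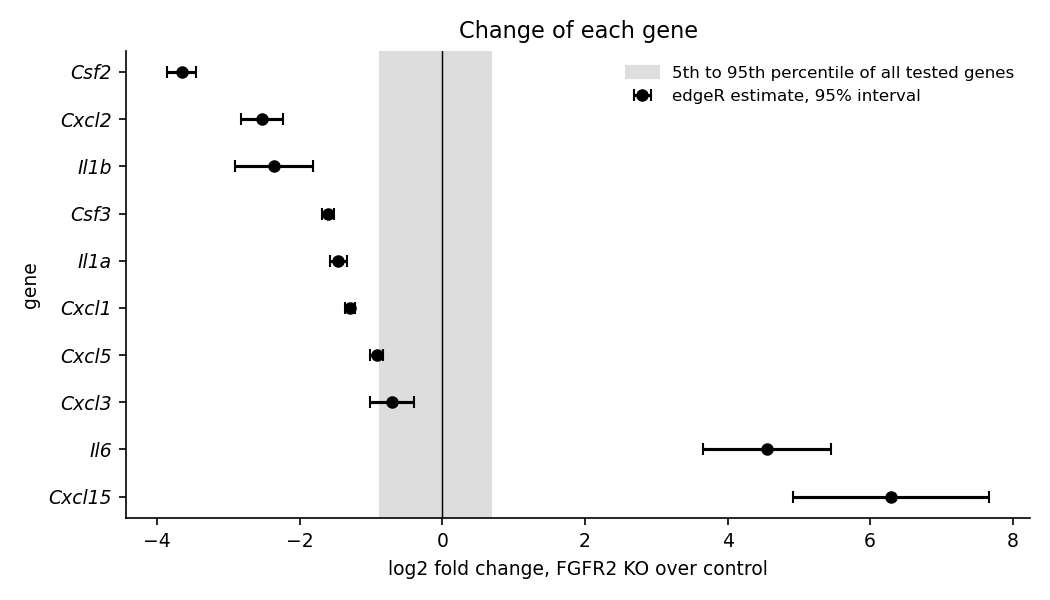
Log2 fold change of each of the 10 genes, FGFR2 KO over control, with its 95% interval from edgeR; shading spans the 5th to 95th percentile of all tested genes, -0.87 to 0.68. Of the 8 genes that fell, 7 have estimates below the shaded range and Cxcl3 lies within it, while Il6 and Cxcl15 lie far above.

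The 5 attractant genes sit in 1 cluster of 147 kb on chromosome 5, all on the plus strand, in the order Cxcl5 (90759360 to 90761624), Cxcl3 (90786103 to 90789600), Cxcl15 (90794534 to 90803067), Cxcl1 (90891241 to 90893115) and Cxcl2 (90903871 to 90905938). Cxcl15, which rose, lies 4.93 kb beyond Cxcl3 and 88.2 kb before Cxcl1, both of which fell. The other chemokine genes between them were Ppbp, at 1.19 CPM in control and 0.744 CPM in KO libraries (edgeR adjusted p = 0.162), and Pf4, with 0 counts in every library. Mthfd2l, the next protein-coding gene beyond Cxcl2 and a mitochondrial folate enzyme, had 23.0 and 25.9 CPM (edgeR adjusted p = 0.0882). Neighbours that changed in different directions were therefore found within the cluster.

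**Figure D3:**
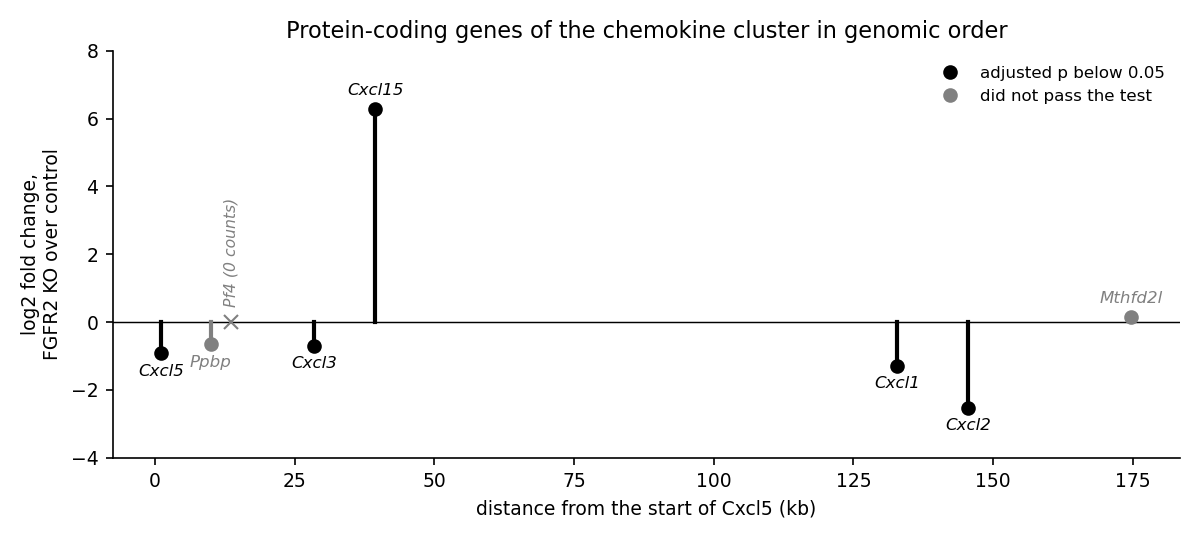
Log2 fold change of the protein-coding genes of the chemokine cluster and of those within 100 kb of it, against distance from the start of Cxcl5 in kb; black points passed the test, grey points did not, and the cross marks Pf4 with 0 counts. Cxcl15 stands at 6.29 between neighbours at -0.70 and -1.30.

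RefSeq promoter sequences (GRCm38.p6, the build also called mm10) were at hand for 8 of the 10 genes, but not for Csf3 and Cxcl5. The windows held 250 bases before and 50 bases after the annotated start. The 150 bases before the start are shown for the 4 genes in whose windows an NF-kB motif was found and for Cxcl15, the cluster gene that rose, since they let neighbours of opposite direction be compared. They are written 5′ to 3′ on the strand of the gene, which is the plus strand for each, and the NF-kB motif is in capitals.
Cxcl1, chr5:90891095-90891244: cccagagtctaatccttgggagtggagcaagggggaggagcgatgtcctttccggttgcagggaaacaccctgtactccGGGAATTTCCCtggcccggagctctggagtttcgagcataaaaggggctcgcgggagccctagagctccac
Cxcl2, chr5:90903749-90903898: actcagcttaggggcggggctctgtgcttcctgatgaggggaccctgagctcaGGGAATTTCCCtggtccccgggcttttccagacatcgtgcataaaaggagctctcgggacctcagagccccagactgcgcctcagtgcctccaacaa
Cxcl3, chr5:90785951-90786100: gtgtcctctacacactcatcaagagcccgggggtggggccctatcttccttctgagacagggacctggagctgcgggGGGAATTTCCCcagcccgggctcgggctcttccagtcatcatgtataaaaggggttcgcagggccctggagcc
Cxcl15, chr5:90794384-90794533: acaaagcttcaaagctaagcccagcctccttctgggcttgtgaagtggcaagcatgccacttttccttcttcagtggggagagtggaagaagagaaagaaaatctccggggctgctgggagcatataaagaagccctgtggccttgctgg
Il6, chr5:30012964-30013113: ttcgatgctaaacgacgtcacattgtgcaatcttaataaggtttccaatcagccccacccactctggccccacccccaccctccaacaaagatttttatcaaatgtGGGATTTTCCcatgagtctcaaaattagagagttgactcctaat

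The NF-kB motif searched was GGGANNTTCC on both strands. It was found in 4 of the 8 windows, against 1.47% of 32851 promoter windows of the same length. Genes of this kind are known to be induced through NF-kB, and 3 of the 4 lie in 1 cluster, so the share only describes them. Cxcl1, Cxcl2 and Cxcl3 carry the same 11 bases, in which matches on both strands overlap, starting 71, 97 and 73 bases before the RefSeq start, and the match of Il6 starts 44 bases before it. The motif was thus found in 3 genes that fell and in 1 that rose, and not in the windows of Cxcl15, Il1a, Il1b and Csf2. The window of Csf2 follows a RefSeq start that lies 232 bases upstream of the GENCODE start, so it leaves out most of the sequence next to the latter. The C/EBP motif TTNNGNAA (both strands) was found in 5 of 8 windows (Csf2, Cxcl2, Il1a, Il1b and Il6), against 40.7% of all windows, and the AP-1 motif TGANTCA (both strands) in those of Il1a and Il6, against 7.81%. The TATA motif TATAAA, on the gene's strand, was found in Cxcl3, Cxcl15, Il1a and Il1b, against 8.32%. GAGATTCCNC, the CK-1 element of cytokine promoters (both strands), was found in none of the 8, against 0.183%. With no Csf3 window and a Csf2 window placed upstream of the GENCODE start, the search cannot tell whether the 2 growth factor genes carry it. These matches describe the letters in the windows and are not measured binding sites.

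Both IL-1 genes fell. Il1a encodes IL-1 alpha, which acts as an alarm signal from damaged or stressed epithelium. It lies on chromosome 2 (129299610 to 129309972, minus strand). Il1a had 95.2, 89.8 and 97.4 CPM in control replicates 1 to 3 and 37.8, 33.4 and 31.4 CPM in KO replicates 1 to 3, or -1.46 on the log2 scale (SE 0.059, edgeR adjusted p = 3.87e-22). Il1b, 54.6 kb from Il1a, encodes IL-1 beta, the form best known from myeloid cells, and had only 71 to 80 counts in control and 13 to 21 counts in KO libraries. The groups were still apart, at 4.26 ± 0.381 and 0.821 ± 0.224 CPM (SD, n = 3), with a log2 fold change of -2.36 (95% interval -2.91 to -1.82, edgeR adjusted p = 1.79e-09). Il1bos, an antisense gene that overlaps Il1b, had 31 counts over the control and 6 over the KO libraries. Il1b reads were 4.52% of those of Il1a in control and 2.41% in KO libraries.

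Il6 (chromosome 5, 30013114 to 30019981) encodes IL-6, a cytokine of the acute phase response that signals through gp130. It had counts of 1, 7 and 0 in control replicates 1 to 3, against 70, 56 and 85 in KO replicates 1 to 3. All KO libraries, at 2.86 to 4.198 CPM, lay above the highest control library at 0.345 CPM. The ratio of the summed counts was 24.4, with a 95% interval of 12.2 to 57.3 for counting error only (edgeR adjusted p = 3.98e-11). The control libraries differed among themselves, with 7 of their 8 counts in replicate 2. Of the fibroblast markers, Col1a1, Dcn and Pdgfrb also stood higher in the KO libraries. They had 24, 2 and 2 counts summed over the control and 72, 33 and 26 counts over the KO libraries. Dcn and Pdgfrb were too low to be tested. Pdgfra, the most abundant of the list, had 36.4 and 39.4 CPM and did not pass (edgeR adjusted p = 0.143). Col1a2 had 1 and 3 counts, and Lum and Col3a1 had 0 counts throughout. The part of the fibroblast markers in the rise of Il6 and Cxcl15 was not tested.

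**Figure D4:**
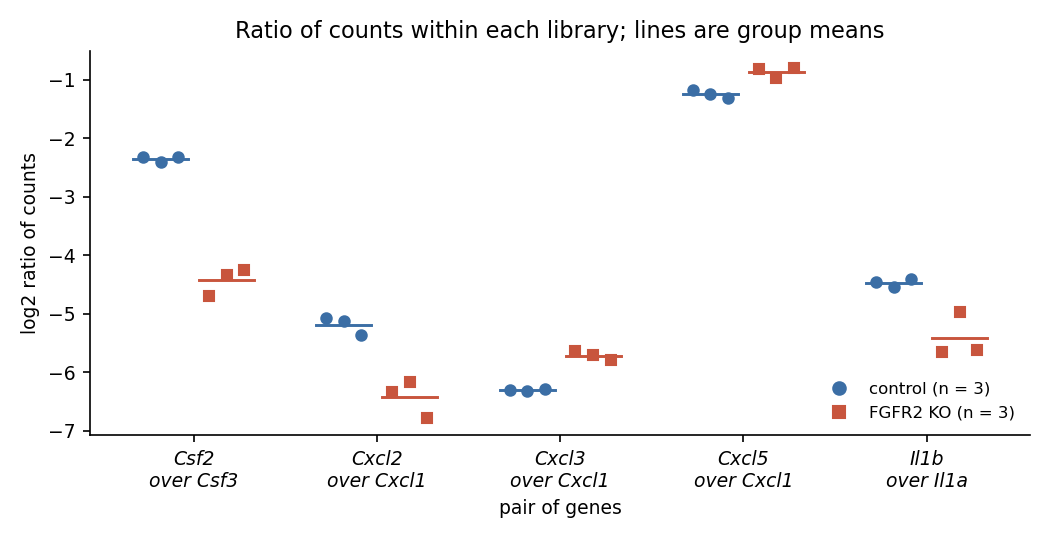
Log2 ratio of the counts of 2 genes within each library for 5 pairs, with 3 control libraries (circles), 3 FGFR2 KO libraries (squares) and lines at the group means. The groups do not overlap for any pair, and the ratio of Csf2 to Csf3 shows the widest gap, from -2.35 to -4.43.

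The log2 ratios of all 5 pairs separated the groups completely, by -2.07 (Csf2 over Csf3), -1.24 (Cxcl2 over Cxcl1), 0.59 (Cxcl3 over Cxcl1), 0.38 (Cxcl5 over Cxcl1) and -0.94 (Il1b over Il1a). For each pair the exact two-sided permutation p was 0.1, and 0.1 after adjustment over the 5 pairs, which is the smallest that 3 against 3 libraries can give. The ratios therefore describe these libraries, and the fitted 95% intervals of the single genes show the same order: that of Csf2 (-3.86 to -3.45) does not meet that of Csf3 (-1.69 to -1.52).

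Levels of different genes were compared per kb of annotated exon (CPM per kb). In the control libraries the order was Cxcl1 (303), Csf3 (175), Cxcl5 (129), Csf2 (60.4), Il1a (47.7), Cxcl2 (7.59), Il1b (2.23), Cxcl3 (2.06), Il6 (0.0548) and Cxcl15 (0.0101). Il1b and Cxcl3 overlapped there, as did Il6 and Cxcl15. In the KO libraries the order was Cxcl1 (123), Cxcl5 (68.0), Csf3 (57.6), Il1a (17.3), Csf2 (4.77), Il6 (1.48), Cxcl2 (1.32), Cxcl3 (1.26), Cxcl15 (0.926) and Il1b (0.431 CPM per kb), with Il6, Cxcl2 and Cxcl3 overlapping. Cxcl5 thus passed Csf3 and Il1a passed Csf2, while Cxcl1 stayed first. Among the 5 attractants, Cxcl1 made up 68.7% of the summed level per kb in control and 63.3% in KO libraries, and Cxcl5 29.2% and 34.9%. Per kb of the protein-coding transcript these shares were 77.5% and 73.4% for Cxcl1 and 19.8% and 24.3% for Cxcl5. The place of Cxcl3 depends on a long transcript with a retained intron. Per kb of its protein-coding transcript it stood at 7.08 in control and 4.34 CPM per kb in KO libraries, above Il1b, which stood at 3.14 and 0.606. By that length Cxcl3 also stood above Il6 (3.16) and Cxcl2 (2.46 CPM per kb) in the KO libraries.

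Transcripts of these genes can share reads with others. Of the 50-base stretches of the protein-coding transcript, 6.31% of those of Cxcl3 and 5.75% of those of Cxcl2 occur in the other gene, 9.14% of those of Il1a lie in the overlapping gene Gm14023, and 6.39% of those of Csf2 in Gm12223. For Csf3, Cxcl1, Il1b and Il6 the share was 0%, and for Cxcl5 and Cxcl15 it was 0.87% and 0.53%.

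AU-rich elements are known from the messages of these genes, so the shares below only describe the 10. For 5 genes a stretch of 30 bases rich in ATTTA pentamers is shown, chosen with extra weight on the longer motif TTATTTATT. The stretches were read from the GENCODE M21 transcripts (mm10) 5′ to 3′ in DNA letters, with the pentamers in capitals. Those of Cxcl1 and Cxcl2 hold 4 pentamers each, whereas the stretches of the attractants Cxcl3, Cxcl5 and Cxcl15, not shown, hold 1 each.
Csf2: taaatATTTATTTATTTATTTATTTAtttt
Csf3: gtttATTTAtctctATTTAatATTTAtgca
Cxcl1: gtcctATTTATTTAtgtATTTATTTAttcc
Cxcl2: cttATTTATTTAtctatgtATTTATTTAtt
Il6: atttttaATTTAttgataATTTAaataagt
All 10 genes had ATTTA in the 3′ untranslated region, with 2 (Cxcl15) to 11 (Cxcl2) pentamers in 317 to 1586 bases, against 67.7% of 11427 tested genes, whose median region was as long as 1029 bases. The longer motif TTATTTATT was found in 4 of the 10 (Csf2 and Cxcl2 with 4 each, Cxcl1 with 2 and Cxcl3 with 1), against 7.69%. Csf2 and Cxcl2, with 4 each, had the lowest log2 fold changes of the 10 (-3.66 and -2.53). Among the other genes that fell, the number of these motifs did not order the falls. Il1b, with 0, had a log2 fold change of -2.36 (95% interval -2.91 to -1.82), which overlaps that of Cxcl2 (-2.83 to -2.23). Il1a and Csf3, with 0, had lower estimates than Cxcl1 with 2. Over the whole table the motif was about as common among genes called lower (7.94%) as among those called higher (7.67%). The part of message decay in the falls was not tested.

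Of the factors that bind AU-rich or stem-loop elements and steer message decay, 5 of 12 fell and 4 rose, against 27.5% and 27.1% of all tested genes (median log2 fold change 0.03, against -0.01). Zc3h12a, the nuclease regnase-1, fell from 48.5 ± 1.37 to 21.6 ± 1.63 CPM (edgeR adjusted p = 4.56e-17), and Zfp36, tristetraprolin, from 237 ± 13.2 to 158 ± 5.37 CPM (edgeR adjusted p = 8.55e-15) (SD, n = 3). The related Zfp36l1 rose from 190 to 327 CPM and the stem-loop binder Rc3h1 (roquin) from 110 to 147 CPM. Decay factors with opposite directions were thus present in the same libraries.

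The ligand-specific receptor chains for the growth factors and attractants were at or near 0 counts. Csf3r, Csf2ra, Cxcr1 and the chemokine scavenger Ackr1 had 0 counts in all 6 libraries, which allows up to 0.193 CPM in the shallowest library, and Cxcr2 averaged 0.0164 CPM in control and 0.170 CPM in KO libraries. Receptor chains for IL-1 and IL-6 were present. Il1r1 stood at 34.1 and 36.4 CPM (edgeR adjusted p = 0.233) and Il6ra at 63.8 and 65.0 CPM (edgeR adjusted p = 0.687). The gp130 gene Il6st rose from 145 ± 3.47 to 273 ± 15.4 CPM (SD, n = 3, edgeR adjusted p = 1.05e-20) and the shared beta chain Csf2rb from 3.41 to 5.84 CPM (edgeR adjusted p = 3.14e-04). Il1rap, the accessory chain of the IL-1 receptor, fell by 0.23 on the log2 scale, and Csf2rb2 stood at 1.21 and 0.738 CPM (edgeR adjusted p = 0.0921). Of the 13 listed receptors and decoys 6 could be tested, of which 2 rose and 1 fell, against 27.1% and 27.5% of all tested genes.

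Of 11 tested other growth factors and attractants of myeloid cells, 7 fell and 2 rose (median log2 fold change -0.66), against 27.5% lower and 27.1% higher among all tested genes. The number that fell was 4 with the filter at a mean of 5 CPM, which leaves fewer of them tested, and 6 or 7 with 1 library left out. Tnf, a known inducer of such genes through NF-kB, fell from 7.49 ± 1.20 to 1.23 ± 0.185 CPM (edgeR adjusted p = 3.80e-13) and Lif, an IL-6 family cytokine, from 274 ± 5.96 to 141 ± 6.15 CPM (edgeR adjusted p = 8.18e-22) (SD, n = 3). The exceptions were Csf1, the growth factor of macrophages, which rose from 167 ± 7.76 to 274 ± 2.60 CPM (SD, n = 3, edgeR adjusted p = 4.09e-18), and Kitl, the ligand of the receptor Kit, which rose from 34.5 to 52.8 CPM. Csf1 and Kitl thus changed in the direction opposite to Csf2 and Csf3. Il3, Pf4, Ccl3 and Il17a had 0 counts in all libraries.

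**Figure D5:**
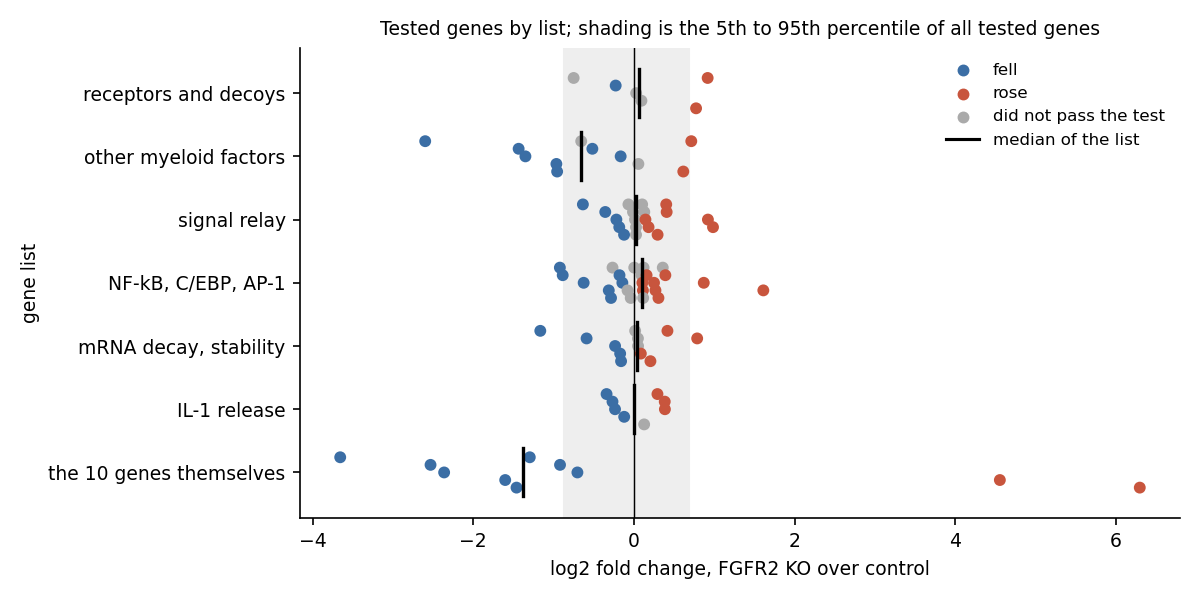
Log2 fold change of each tested gene of 6 pathway lists and of the 10 genes themselves, with a black line at the median of each list; blue points fell, red points rose and grey points did not pass the test, and shading is the 5th to 95th percentile of all tested genes. The list of other myeloid factors has a median of -0.66, and the other 5 lists have medians between 0.0026 and 0.10.

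Of 19 tested genes that relay IL-1, TLR, TNF and IL-17 signals, 7 rose, 5 fell and 7 did not pass (median log2 fold change 0.03), shares near the 27.1% higher and 27.5% lower of all tested genes. Tlr2, a receptor for bacterial lipoproteins, rose from 22.8 to 45.1 CPM (edgeR adjusted p = 5.10e-15) and Il17rc from 24.5 to 32.5 CPM. Irak2, a part of the IL-1 receptor complex, fell from 19.8 to 12.8 CPM (edgeR adjusted p = 5.22e-07) and the TNF receptor Tnfrsf1b from 67.6 to 52.8 CPM. The number that fell was 3 without control replicate 2 and 3 without KO replicate 3.

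Among 24 genes of NF-kB, C/EBP and AP-1, 9 rose and 7 fell (median log2 fold change 0.10), against 27.1% higher and 27.5% lower among all tested genes. Of the 5 NF-kB subunits, Rel and Rela rose by 0.25 and 0.10 on the log2 scale (edgeR adjusted p = 0.00763 and 0.0397), and Relb, Nfkb1 and Nfkb2 did not pass (0.11, -0.04 and 0.0036; edgeR adjusted p = 0.126, 0.426 and 0.941). The NF-kB inhibitor Nfkbia, itself an NF-kB target, fell from 289 ± 6.74 to 156 ± 6.82 CPM (edgeR adjusted p = 6.01e-21). Nfkbiz, a coactivator of NF-kB at cytokine promoters, fell from 185 ± 2.69 to 97.4 ± 3.51 CPM (edgeR adjusted p = 1.46e-20) (SD, n = 3). Nfkbie also fell, by 0.29 on the log2 scale, whereas Tnfaip3 and Nfkbib did not pass (edgeR adjusted p = 0.000493, 0.108 and 0.252). Of the C/EBP genes, Cebpb fell from 97.9 ± 13.8 to 63.5 ± 18.7 CPM (SD, n = 3). Its highest KO library, at 80.96 CPM, was just below its lowest control library, at 82.09 CPM. Cebpd rose from 2.58 to 4.74 CPM. Cebpa did not pass (edgeR adjusted p = 2.56e-06, 0.000333 and 0.37 for the 3). The AP-1 subunit Fosl2 rose from 88.9 ± 0.179 to 271 ± 13.7 CPM (edgeR adjusted p = 5.81e-28), while Jun fell from 597 to 480 CPM (edgeR adjusted p = 1.27e-09).

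Of 8 tested genes for the processing and release of IL-1, 4 fell and 3 rose, all by less than 0.39 on the log2 scale, against 27.5% and 27.1% of all tested genes. Calpain, the protease that cleaves the IL-1 alpha precursor, had its subunits Capns1 and Capn1 lower (-0.34 and -0.27, edgeR adjusted p = 1.28e-09 and 9.76e-07) and Capn2 higher (0.29, edgeR adjusted p = 1.97e-08). Casp1, the protease of the inflammasome that cleaves the IL-1 beta precursor, rose from 16.3 to 21.2 CPM, and the inflammasome adaptor Pycard had 0 counts in all libraries. The 4 genes with the smallest adjusted p in each of the 6 lists were also tested against a minimum fold change of 1.5. Of these, Rc3h1, Zfp36, Csf2rb, Il1rap, Kitl, Il17rc, Irak2, Tnfrsf1b, Jun, Capns1, Capn1, Capn2 and Casp1 lost their calls. In the list of NF-kB, C/EBP and AP-1 genes, only Fosl2, Nfkbia and Nfkbiz kept their calls. Cebpb, Cebpd, Nfkbie, Rel and Rela thus lost theirs, and the rises of Rel and Rela were smaller than 1.5-fold. Other list genes named here were not looked up in that test.

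Within 100 kb of Csf2, Csf3, the IL-1 genes and Il6, 10 other protein-coding genes were tested, of which 3 fell, 5 rose and 2 did not pass, against 54.6% called over the whole table. Acsl6, a fatty acyl-CoA synthetase 54.1 kb from Csf2, fell from 14.0 to 2.89 CPM (log2 fold change -2.27, edgeR adjusted p = 2.56e-16), and Il3 between them had 0 counts. Med24, a Mediator subunit whose 3′ end lies 0.962 kb from that of Csf3 on the other strand, fell by 0.82 on the log2 scale (edgeR adjusted p = 9.40e-20), and Psmd3, a proteasome subunit on the other side of Csf3, rose by 0.28 (edgeR adjusted p = 1.05e-07). Ckap2l and Slc20a1, next to Il1a, rose by 0.19 and 0.37 (edgeR adjusted p = 0.0015 and 7.64e-11). Also near Csf3, the nuclear receptor gene Nr1d1 rose by 1.04 and Thra, the thyroid hormone receptor, fell by 0.30 (edgeR adjusted p = 6.71e-14 and 2.1e-05), and Msl1 did not pass (edgeR adjusted p = 0.214). Near Il6, Tyms, the thymidylate synthase, rose by 0.57 (edgeR adjusted p = 1.85e-10) and Hadha did not pass (edgeR adjusted p = 0.0722).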

How the data were processed

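Stranded mRNA libraries (TruSeq, per the labels) were analysed, 3 control and 3 FGFR2 KO, grouped by their titles. The deposited values are raw read counts per gene symbol. The submitters' processing notes name FastQC 0.11.9, STAR 2.7.9a, featureCounts and R 4.1.1, and the builds hg38 and mm10 without a role. Which annotation release and strand setting were used, and how reads with several alignments were treated, is not given in the sources used here, so overlapping and near-identical genes are uncertain to that extent. Of the 31017 symbols, 98.2% occur in GENCODE M21 (mm10), which gave positions and lengths. Every column matched 1 library, and 0 columns were left over.

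The whole table was fitted with edgeR 4.0.16 in R 4.3.3: filterByExpr (minimum count 10, minimum total 15), TMM scaling, group as the sole model term and the quasi-likelihood F-test, with Benjamini-Hochberg adjustment over all 12158 genes tested and a threshold of 0.05. Log2 fold changes compare KO with control at a prior count of 0.125. The standard error (SE) was obtained from the log2 fold change and F, as their quotient after taking the root of F, and intervals have a confidence level of 95%. CPM were computed on TMM-scaled totals. On simulated counts of the KO and control libraries (12059 genes tested), the procedure recovered 94% of 50 genes changed 2-fold. It recovered 52% of 50 genes changed 1.25-fold, and the simulation changed a far smaller share of genes than the 54.6% called here. Alternatives were DESeq2 1.42.0, limma-voom (limma 3.58.1), 3 other scalings, 2 other filters, a minimum fold change of 1.5, the replicate number as a block, and leaving out each library. The labels do not say that replicates were separate cultures, so the p-values rest on a spread among libraries that may be technical only. Between replicates, the chi-square per degree of freedom over genes was 2.28 to 4.69, more than counting noise, and each library counted once.

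The 10 genes and the 6 lists of pathway genes were chosen with earlier results of these data known. All 10 genes are named, together with Fgfr2 and the 4 genes with the smallest adjusted p in each list. Further list members, such as receptors with no counts, were named after their values were seen, and the motifs and sequences to print were chosen likewise. Intervals and floors from counts cover counting error only. Length of the protein-coding transcript was added as an alternative after seeing the data.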

Additional observations from a re-analysis of the deposited data

How the results depend on the processing

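The direction and the call of Csf2, Csf3, Cxcl1, Cxcl2, Cxcl5, Il1a, Il1b, Il6 and Cxcl15 were the same under every alternative in which the gene could be tested. Cxcl3 lost its call only against a minimum fold change of 1.5 (log2 fold change -0.70, edgeR adjusted p = 0.709), a test that called 505 genes lower and 402 higher over the whole table, against 3339 and 3300 without it, and that left 1 gene higher and at most 2 lower in the lists of signal relay, NF-kB with its partners, and decay factors. With a filter at a mean of 5 CPM, Il1b, Il6 and Cxcl15 were not tested, 7 of the 10 genes fell and 0 rose. The low counts of the last 2 in the control limit their size: over all alternatives the log2 fold change of Il6 ran from 4.08 (without control replicate 3) to 6.64 (without control replicate 2) and that of Cxcl15 from 5.62 (limma-voom) to 8.26 (without control replicate 3). Leaving out 1 library at a time gave log2 fold changes of -0.1725 to -0.0172 for Fgfr2, the former without KO replicate 1 (edgeR adjusted p = 0.0081). Replicate numbers did not pair the libraries: the correlation of deviations between libraries of the same number was -0.029, -0.003 and -0.064, and 0 of 3 control libraries matched best with their own number. With the replicate number as a block, 8 of the 10 genes fell and 2 rose, with a log2 fold change of -3.66 for Csf2, -1.60 for Csf3 and -0.70 for Cxcl3, and 3237 genes were lower and 3206 higher over the whole table.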
